A study of Mus musculus with 16 samples.

Results

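The genes described here are 41 genes by which the heart takes up, activates and oxidizes fatty acids and ketone bodies, chosen by symbol, with the enzymes' main regulators. All 41 have a row in each of 2 experiments on mouse hearts lacking CAP2, a protein that binds actin: 41 of 38087 gene rows in experiment A and 41 of 54232 rows in experiment B. Experiment A compared hearts of 86-week-old female C57BL/6 mice, 3 wild type and 3 CAP2 -/-. In experiment B the hearts came from C57BL/6 mice 13 weeks old, all with loxP sites on both copies of the gene. Its 5 controls (Loxp/Loxp, Cre-; replicates 1 to 3 female, 4 and 5 male) had no Cre. Its 4 Cre+ hearts (replicates 1 to 3 female, 4 male) carried Cre under the Myh6 promoter, which is active in cardiomyocytes, the contracting cells of the heart. No control carried Cre alone, so Cre and the loss of Cap2 cannot be told apart in experiment B. The title of the series places the mice in work on CAP2-dependent dilated cardiomyopathy.

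The heart draws most of its energy from fatty acids. Lipoprotein lipase frees them from circulating triglyceride, carriers bring them into the cell, acyl-CoA synthetases activate them, and the carnitine shuttle moves them into mitochondria, where beta-oxidation shortens them and passes electrons to the respiratory chain. Malonyl-CoA holds the shuttle back, ketone bodies are a second fuel that enters mitochondria by its own enzymes, and the nuclear receptors PPAR alpha and the estrogen-related receptors, with their PGC-1 coactivators, switch on many of these genes.

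The promoters of the 4 genes that fell in 1 of the experiments and have an entry in the RefSeq table are shown. They run from 250 bases before to 50 bases after the start that RefSeq gives on GRCm38.p6, 5′ to 3′ on the gene's strand. For Acacb that start lies inside the gene as annotated in mm10 by GENCODE (start 114146535), so its window is at an internal start. Capitals mark AGGTCA, the hexamer that nuclear receptors bind, or its reverse complement TGACCT. Cpt2 (carnitine shuttle) is at chr4:107923540-107923839 on the minus strand, and Acot1 (thioesterase) at chr12:84009252-84009551 on the plus strand. Acacb (malonyl-CoA synthesis) is at chr5:114165268-114165567 and Ucp3 (uncoupling) at chr7:100472741-100473040, both on the plus strand.
Cpt2: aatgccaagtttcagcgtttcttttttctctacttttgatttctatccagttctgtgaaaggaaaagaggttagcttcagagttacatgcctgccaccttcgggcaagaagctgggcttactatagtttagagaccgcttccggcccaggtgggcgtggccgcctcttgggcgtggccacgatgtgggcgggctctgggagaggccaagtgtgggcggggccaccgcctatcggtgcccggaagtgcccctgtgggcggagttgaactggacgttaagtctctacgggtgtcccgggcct
Acot1: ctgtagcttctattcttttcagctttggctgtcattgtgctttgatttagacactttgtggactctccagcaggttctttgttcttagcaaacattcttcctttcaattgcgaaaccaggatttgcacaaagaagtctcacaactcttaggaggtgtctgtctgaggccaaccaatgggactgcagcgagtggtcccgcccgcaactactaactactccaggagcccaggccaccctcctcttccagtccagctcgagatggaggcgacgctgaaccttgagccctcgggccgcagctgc
Acacb: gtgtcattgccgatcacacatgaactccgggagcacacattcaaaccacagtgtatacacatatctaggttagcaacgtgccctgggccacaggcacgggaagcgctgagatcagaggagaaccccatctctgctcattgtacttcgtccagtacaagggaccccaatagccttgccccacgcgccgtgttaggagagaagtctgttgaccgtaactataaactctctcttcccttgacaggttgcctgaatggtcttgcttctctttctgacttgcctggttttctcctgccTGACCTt
Ucp3: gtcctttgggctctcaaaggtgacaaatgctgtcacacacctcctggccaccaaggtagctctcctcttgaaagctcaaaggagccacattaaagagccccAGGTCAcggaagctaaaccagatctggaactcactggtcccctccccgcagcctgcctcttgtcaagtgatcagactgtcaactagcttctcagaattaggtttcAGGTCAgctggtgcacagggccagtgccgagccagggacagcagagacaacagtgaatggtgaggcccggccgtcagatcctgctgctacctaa

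The RefSeq table held a promoter for 35 of the 41 genes. On either strand, AGGTCA was present in 8 of 35 (22.9%), those of Acacb, Acadm, Acadvl, Cd36, Cpt1a, Echs1, Plin5 and Ucp3, against 18.1% of the 27025 promoters in the table. Ucp3 held 2 copies, Acacb held 1 in its window at the internal start, and the windows of Cpt2 and Acot1 held 0. TCAAGGTCA, the longer site of the estrogen-related receptors, which contains the hexamer, was in 0 of 35 and in 0.466% of all promoters. A direct repeat of AGGNCA with 1 base between, the form bound by PPAR with RXR, was in 0 of 35 and in 0.451% of all. The CArG box of the serum response factor was in 0 of 35 and in 1.81% of all. The search for the hexamer was added after the data were seen.

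Gene totals were 10750342 to 27440567 rounded counts per library in experiment A. Experiment B holds the authors' normalized counts, whose depth is unknown. Cap2 itself was 214 ± 15.7 CPM (SD, n = 3) in wild type and 12.2 ± 3.91 (SD, n = 3) in CAP2 -/- hearts, and 390.6 ± 288 normalized counts (SD, n = 5) in controls and 65 ± 24.2 (SD, n = 4) in Cre+ hearts. The marker genes of cardiomyocytes were detected in every group, with summed levels of 82956 to 89525 CPM in wild type and 75448 to 91321 in CAP2 -/- hearts, and of 242762 to 372676 normalized counts in controls and 195129 to 293914 in Cre+ hearts. Of these markers 1 was called in experiment B: Pln (phospholamban) fell by 1.53 (limma adjusted p = 0.0333), and control replicate 4 was highest for it (17025, other controls 6017 to 8324). Ryr2 (the calcium release channel) was at -0.42 in experiment A and -0.91 in experiment B, not called, again highest in control replicate 4 (11130). Of the 10 cardiomyocyte markers, 6 had fold changes below 0 and 4 above 0 in each experiment. Their medians were -0.04 (A) and -0.26 (B). Of all genes tested, 49.1% (A) and 58.5% (B) were below 0. Summed fibroblast markers were 1011 to 1064 CPM in wild type and 1283 to 1326 in CAP2 -/- hearts, without overlap, and 3686 to 14714 normalized counts in controls and 11822 to 35647 in Cre+ hearts, with overlap. In experiment A Dcn was the largest part of that sum, at a mean of 467 CPM in wild type and 654 in CAP2 -/- hearts. Of the 8 markers there, 6 had fold changes above 0 and 2 below, and 0 were called. Groups did not overlap for Dcn alone (higher in 7.6% of all genes). In experiment B all 8 were above 0 and 0 were called. The 6 atrial markers summed to 46.9 to 49.4 CPM in wild type and 55.6 to 62.3 in CAP2 -/- hearts, without overlap. Of the 5 tested in experiment A, 4 had fold changes above 0, and Dkk3 among them rose (edgeR adjusted p = 0.00191). The other 1, Stard10, had the highest level of the list. It was lower in every CAP2 -/- heart, at 32.6 to 33.3 CPM in wild type and 23.3 to 26.5 in CAP2 -/- hearts, and was not called. In experiment B the 6 atrial markers summed to 109 to 7992 normalized counts in controls and 671 to 44132 in Cre+ hearts, with overlap. All 6 had fold changes above 0 there, with a median of 4.03, and 0 were called. Myl4, the highest of them, had 64, 291, 3103, 10 and 82 in controls and 217, 11142, 23516 and 19664 in Cre+ hearts. For it Cre+ replicate 1 lay among the controls and Cre+ replicates 2 to 4 far above them. For Bmp10, Dkk3 and Stard10 Cre+ replicate 2 also lay among the controls. Endothelial markers summed to 1253 to 1338 CPM in wild type and 1190 to 1233 in CAP2 -/- hearts, without overlap, and 0 of 10 were called. Of the 10, 8 had fold changes below 0 and 2 above. Groups did not overlap for Cdh5 and Tie1, lower (8% of all genes), and for Kdr, higher (7.6% of all). In experiment B the 10 summed to 4338 to 9699 normalized counts in controls and 6207 to 8259 in Cre+ hearts, with overlap. There 5 of 10 were below 0 and 0 were called. Macrophage markers were above 0 for 4 of 7 in experiment A and 8 of 8 in experiment B, with 0 called. In experiment B mitochondrially encoded genes took 30.4% to 69.5% of the values in controls and 23.0% to 52.7% in Cre+ hearts. The part of these differences in the results was not tested, apart from the fits with atrial markers or the mitochondrial share as a covariate given below. In RNA of heart tissue, fewer cells of a type and less RNA per cell cannot be told apart.

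Control replicate 4 of experiment B stood apart from the other controls for these genes. It was the highest of all 9 libraries for 27 of the 41 genes, with a median ratio of 1.57 to the median of the other 4 controls. Of the 41, 15 were over 2-fold higher in it, led by Ppara at 7.16 times, Hadhb at 5.88, Esrrg at 5.70 and Acadm at 5.35. For Etfb it was instead at 0.234 and for Ucp2 at 0.349 times the other controls' median. Results that rest on the controls of experiment B are therefore given with and without it where the call or the count changes.

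In the 86-week hearts the genes lay slightly lower in CAP2 -/- than in wild type, and 2 fell: Acaa2, the last enzyme of the beta-oxidation spiral, and Cpt2, the inner-membrane enzyme of the carnitine shuttle. By edgeR's quasi-likelihood test with Benjamini-Hochberg adjustment over all genes, 2 of 41 fell at adjusted p under 0.05, where 0.509% of all 16297 genes tested did. None of the 41 rose, where 0.841% of all genes did, and 1.35% of all genes changed in either direction. At an unadjusted p under 0.05, 2 were higher (Bdh1 and Ppargc1b; 5.11% of all genes) and 17 lower (5.32% of all genes), and DESeq2 called 0 higher. The log2 fold change was below 0 for 31 of 41 (49.1% of all genes), with a median of -0.18 beside 0.01 over all genes and a range from -0.54 for Acot1 to 0.65 for Ppargc1b. All CAP2 -/- libraries were below all wild-type libraries for 20 genes (8% of all genes) and above them for 3 (7.6% of all). The number that fell was 6 with DESeq2, where 0.957% of all genes did. It was 5 without CAP2 -/- replicate 1, 1 without wild-type replicate 1 or 2, and 0 when wild-type replicate 3 or either of the CAP2 -/- replicates 2 and 3 was left out. For fits with a library left out the share of all genes is not given, so these counts cannot be set against it. In the authors' deposited table, 6 of the 41 were lower at adjusted p under 0.05 (1.14% of its genes): Acaa2, Acacb, Acot1, Cpt2, Dgat2 and Hadh.

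**Figure D1:**
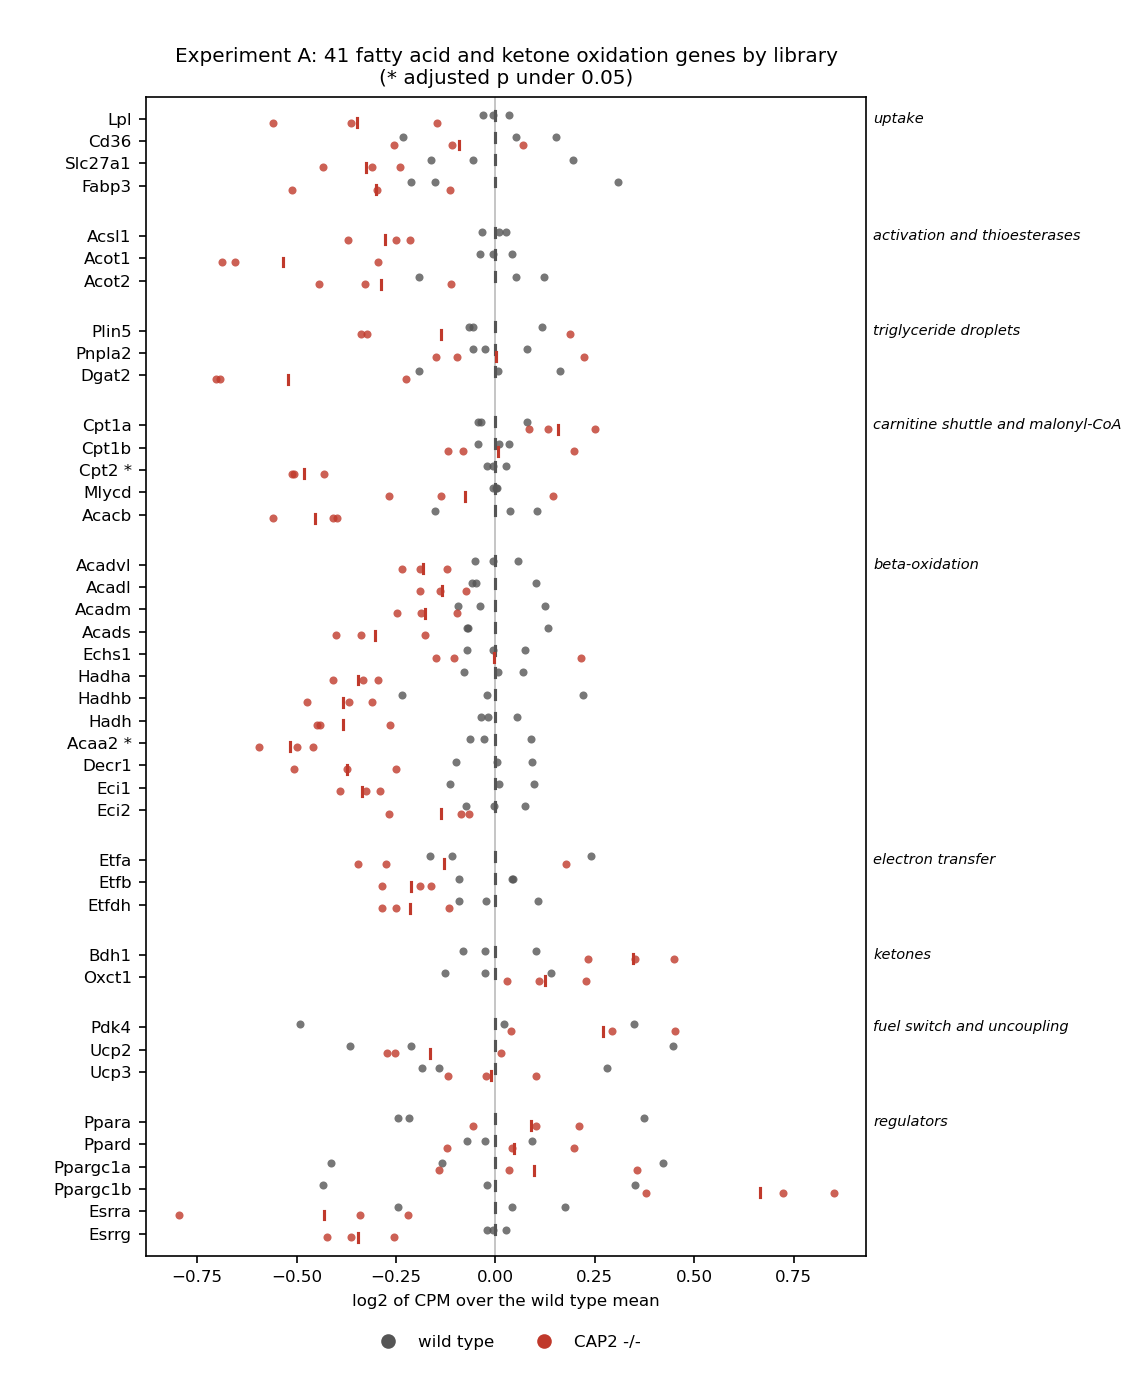
Level of each of the 41 genes in every library of experiment A, as the log2 of CPM over the wild-type mean (horizontal axis), by step; grey points are wild type, red points CAP2 -/-, vertical ticks the group means, and an asterisk marks an adjusted p under 0.05. The red points of the 12 beta-oxidation genes have means at or left of 0, while those of Bdh1 and Ppargc1b lie to the right.

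In the 13-week hearts the differences were larger, with 5 genes that fell in Cre+ hearts: Acot1, a thioesterase, Dgat2, which makes triglyceride, Acacb, which makes malonyl-CoA, Decr1, an accessory enzyme of beta-oxidation, and Ucp3, an uncoupling protein. By limma with Benjamini-Hochberg adjustment, 5 of 41 fell at adjusted p under 0.05, where 0.931% of all 12141 genes tested did. None rose, where 0.947% of all genes did, and 1.88% of all genes changed in either direction. At an unadjusted p under 0.05, 1 was higher (Ucp2; 7.89% of all genes), and 29 were lower (14.2% of all genes). The log2 fold change was below 0 for 37 of 41 (58.5% of all genes), with a median of -0.94 beside -0.12 over all genes and a range from -2.21 for Cpt1b to 1.15 for Ucp2. All Cre+ libraries were below all controls for 15 genes (4.79% of all genes) and above them for 0 (3.87% of all). Without control replicate 4 the first count was 16 (5.64% of all). The count of genes that fell rested on single libraries. It was 16 without control replicate 4 (1.85% of all genes), 12 without control 5 and 10 without Cre+ 1, but 1 without control 1 or 2, 2 without control 3, and 0 without Cre+ 2, 3 or 4. With the mitochondrial share or the atrial markers as a covariate it was 0. Except without control replicate 4, the share of all genes is not given for these fits. A change in the count among the 41 therefore cannot be told from a change over all genes.

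**Figure D2:**
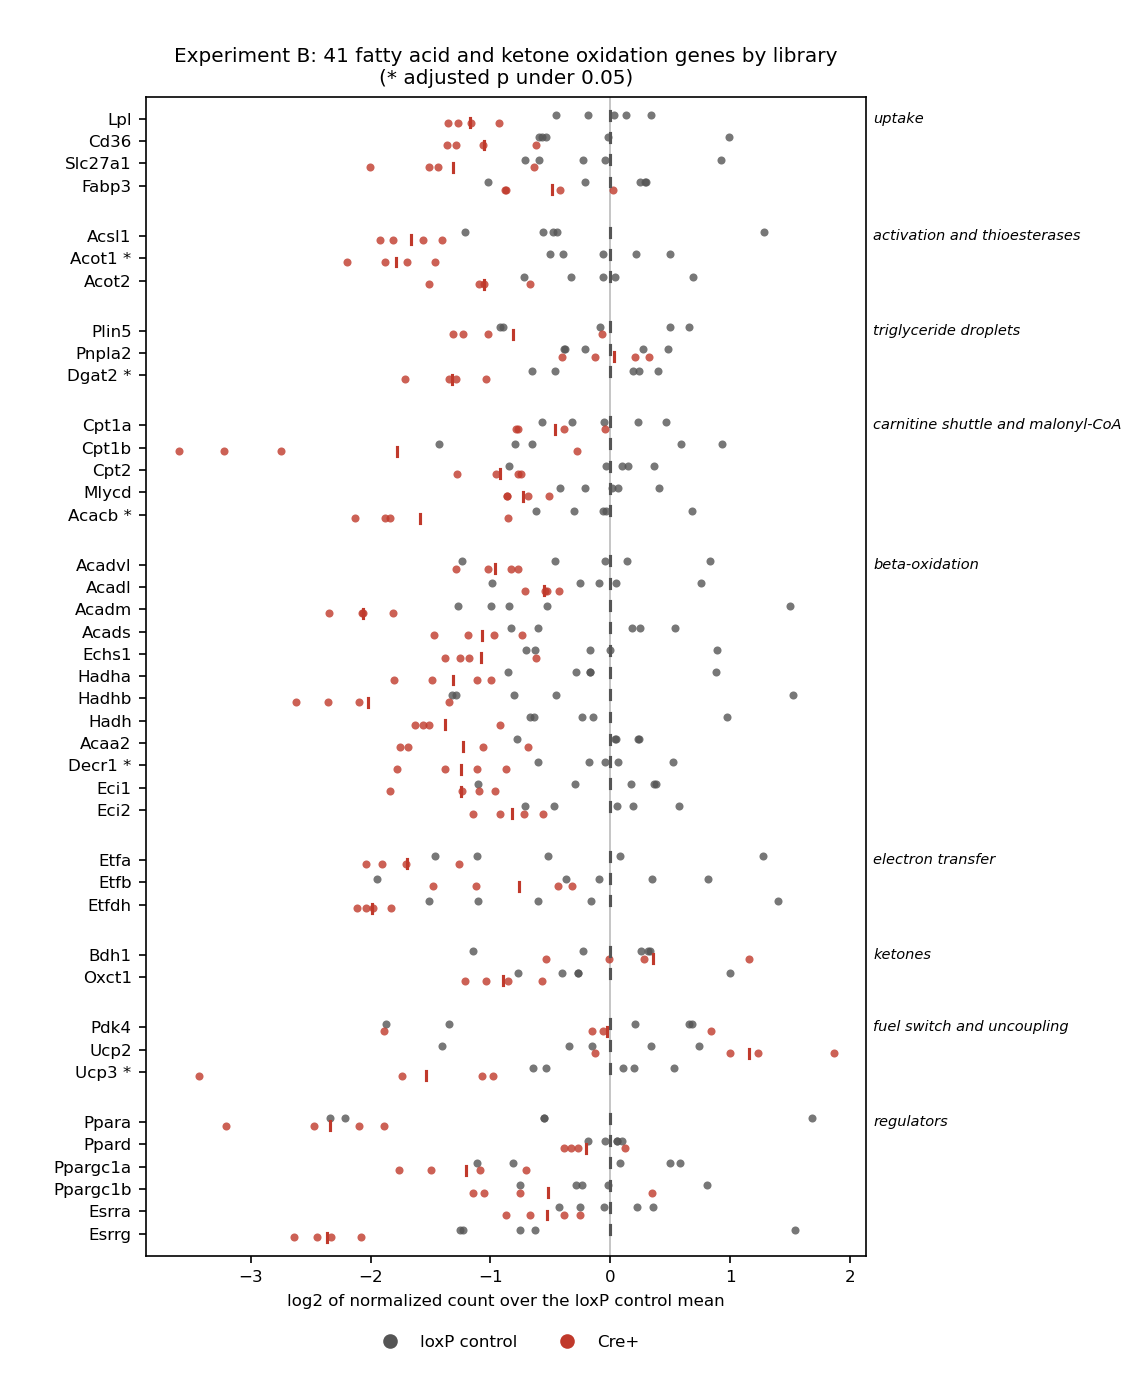
Level of each of the 41 genes in every library of experiment B, as the log2 of the normalized count over the control mean (horizontal axis), by step; grey points are loxP controls, red points Cre+ hearts, vertical ticks the group means, and an asterisk marks an adjusted p under 0.05. Most red points lie left of 0; single grey points far to the right, as for Acadm, Hadhb and Esrrg, are control replicate 4.

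The median over the 41 genes separated the groups in both experiments. As a log2 difference from the control mean it was -0.049, 0.034 and 0.002 in wild-type replicates 1 to 3 and -0.14, -0.25 and -0.25 in CAP2 -/- replicates 1 to 3. It was 0.09, -0.29, -0.51, 0.57 and 0.11 in control replicates 1 to 5 and -1.02, -0.90, -1.25 and -0.88 in Cre+ replicates 1 to 4. Every mutant heart was below every control of its experiment, and the controls of experiment B spread far more widely than those of experiment A.

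**Figure D3:**
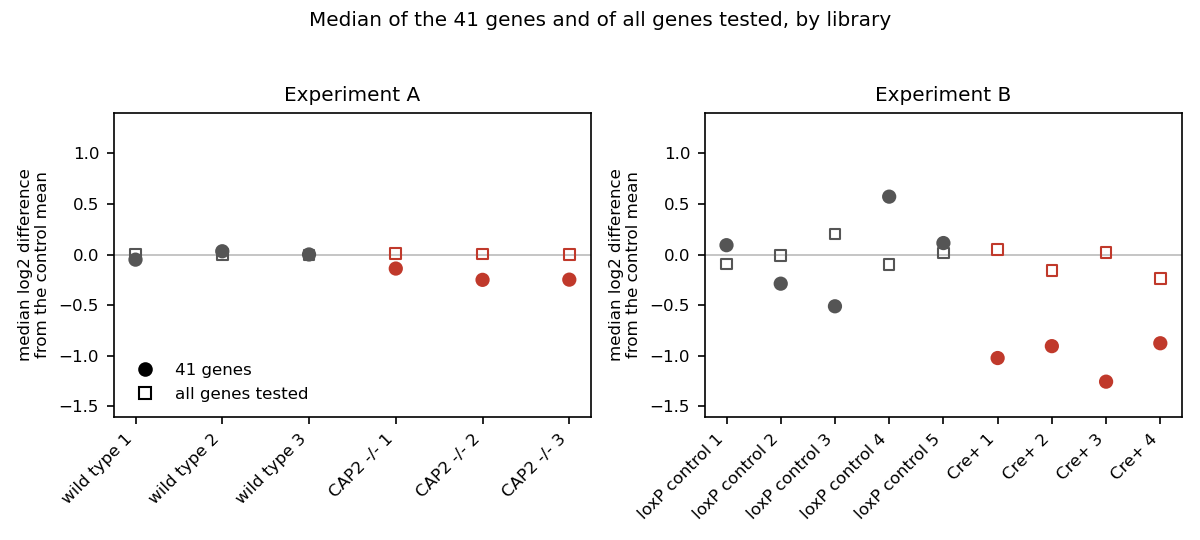
Median over the 41 genes (filled circles) and over all genes tested (open squares) in each library, as a log2 difference from the control mean (vertical axis), grey for controls and red for mutants. In experiment B the filled circles of the Cre+ hearts lie between -1.25 and -0.88, and those of the controls between -0.51 and 0.57.

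Uptake is served by Lpl (lipoprotein lipase), Cd36 (the fatty acid translocase), Slc27a1 (a fatty acid transport protein) and Fabp3 (the cytosolic carrier of heart). None of the 4 passed the test in either experiment. All 4 had fold changes below 0 in both comparisons, with medians of -0.31 (A) and -0.996 (B). For this and the steps below, the share of all genes below 0 was 49.1% in experiment A and 58.5% in experiment B. Lpl had 7238, 7444 and 7113 CPM in wild-type and 6556, 5648 and 4931 in CAP2 -/- hearts, a log2 fold change of -0.35 ± 0.11 (SE, n = 3 and 3; edgeR adjusted p = 0.204). The values in experiment B were 31217, 25004, 20828, 36081 and 29098 normalized counts in controls and 11792, 14940, 12708 and 11136 in Cre+ hearts, -1.13 ± 0.27 (SE, n = 5 and 4; limma adjusted p = 0.0588). The groups did not overlap in either experiment, and the lipase was lower in every mutant heart. Without control replicate 4 Lpl and Slc27a1 passed the test in experiment B, and without CAP2 -/- replicate 1 Lpl passed it in experiment A. The log2 fold changes of Cd36, Slc27a1 and Fabp3 were -0.09, -0.32 and -0.30 in experiment A and -0.86, -1.35 and -0.39 in experiment B.

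Activation is by Acsl1, the main long-chain acyl-CoA synthetase of heart, and the thioesterases Acot1 (cytosolic) and Acot2 (mitochondrial) take the CoA off again. All 3 had fold changes below 0 in both experiments, and Acot1 (chr12:84009490-84018371, mm10) fell in experiment B. Acot1 had 32.2, 31.5 and 33.3 CPM in wild-type and 26.4, 20.1 and 20.5 in CAP2 -/- hearts, -0.54 ± 0.15 on the log2 scale (SE, n = 3 and 3; edgeR adjusted p = 0.0899). At 13 weeks it had 42, 64, 78, 39 and 53 normalized counts in controls and 17, 20, 15 and 12 in Cre+ hearts, -1.76 ± 0.29 (SE, n = 5 and 4; limma adjusted p = 0.0174). The groups did not overlap in either experiment, and control replicate 4 was here the lowest control. The call was lost without control replicate 2 (0.0665, limma adjusted p), control 3 (0.0519), Cre+ 2 (0.0544), Cre+ 3 (0.0634) or Cre+ 4 (0.0842), and in experiment A it was gained without CAP2 -/- replicate 1 (edgeR adjusted p = 0.0296). Acot1 and Acot2 are near copies: 527 of the 3886 stretches of 50 bases in Acot1's exons, 13.6%, also occur in Acot2, so reads can be split between them and both values are uncertain. Acsl1 and Acot2 had log2 fold changes of -0.28 and -0.29 in experiment A and of -1.30 and -0.94 in experiment B, none past the test with all libraries, while without control replicate 4 Acsl1 passed it in experiment B.

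Triglyceride droplets store fatty acids in the cell. Dgat2 makes triglyceride, Pnpla2 (adipose triglyceride lipase) breaks it down, and Plin5 coats the droplets beside mitochondria. Dgat2 (chr7:99153658-99182719) had 509, 567 and 443 CPM in wild-type and 433, 313 and 311 in CAP2 -/- hearts, -0.52 ± 0.14 on the log2 scale (SE, n = 3 and 3; edgeR adjusted p = 0.0934). In experiment B it had 1622, 1034, 904, 1677 and 1870 normalized counts in controls and 560, 583, 434 and 693 in Cre+ hearts and fell by 1.20 ± 0.23 (SE, n = 5 and 4; limma adjusted p = 0.0315). Every mutant heart was below every control in both experiments. In experiment A the gene passed the test without CAP2 -/- replicate 1 (edgeR adjusted p = 0.00584). In experiment B the call was lost without control 1 (limma adjusted p = 0.0914), control 2 (0.0774), Cre+ 2 (0.0951), Cre+ 3 (0.117) or Cre+ 4 (0.156). Pnpla2, the lipase, had log2 fold changes of 0.00 ± 0.12 (SE) in experiment A and 0.05 ± 0.27 in experiment B, and Plin5 of -0.14 and -0.73, none past the test. Fat cells also express genes of uptake and storage. The 8 fat cell markers summed to 45.5 to 60.9 CPM in wild type and 43.2 to 58.8 in CAP2 -/- hearts, with overlap. Most of that sum was Cidea, at 40.8 to 57.5 CPM in wild type and 40.6 to 57.4 in CAP2 -/- hearts, so it says little of the other markers. In experiment B the 8 summed to 98 to 1075 normalized counts in controls and 241 to 946 in Cre+ hearts, with overlap, and 0 were called. In experiment A Adipoq, Cidec and Lep, named after their values were seen, were each at most 1.93 CPM and lower in every CAP2 -/- heart. For the other markers the groups overlapped. Cidec was not called (edgeR adjusted p = 0.0993), and Adipoq and Lep were too low to test. Their part in the result was not tested.

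The carnitine shuttle begins with Cpt1b, the muscle form of the outer-membrane enzyme, or Cpt1a, the liver form, and ends with Cpt2. Acacb makes the malonyl-CoA that inhibits the outer-membrane step, and Mlycd removes it. Cpt2 (chr4:107903981-107923610) had 424, 410.2 and 415 CPM in wild-type hearts and 292, 293 and 309 in CAP2 -/- hearts and fell by 0.48 ± 0.10 on the log2 scale (SE, n = 3 and 3; edgeR adjusted p = 0.026). The groups were far apart for their spread, with SDs of 7.25 and 9.38 CPM. The call was lost without any library but CAP2 -/- replicate 1: adjusted p with edgeR was 0.0712, 0.0689 and 0.0993 without wild-type replicates 1, 2 and 3, and 0.138 and 0.106 without CAP2 -/- replicates 2 and 3. In experiment B Cpt2 had 951, 1044, 541, 1252 and 1077 normalized counts in controls and 579, 571, 401 and 503 in Cre+ hearts, -0.84 ± 0.26 (SE, n = 5 and 4; limma adjusted p = 0.111). Control replicate 3, at 541, lay inside the range of the Cre+ hearts, and the other controls lay above it.

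Acacb (chr5:114146535-114250761), the mitochondrial form of acetyl-CoA carboxylase, had 819, 781 and 685 CPM in wild-type and 574, 517 and 578 in CAP2 -/- hearts, -0.45 ± 0.11 on the log2 scale (SE, n = 3 and 3; edgeR adjusted p = 0.0622). At 13 weeks it had 2946, 1491, 1792, 1767 and 1193 normalized counts in controls and 1015, 515, 498 and 420 in Cre+ hearts and fell by 1.68 ± 0.30 (SE, n = 5 and 4; limma adjusted p = 0.0226). The groups did not overlap in either experiment, and Cre+ replicate 1 was the closest to the controls. The limma call was lost without control 1 (adjusted p = 0.0793), control 3 (0.0515), Cre+ 2 (0.0941), Cre+ 3 (0.0875) or Cre+ 4 (0.117). Mlycd, which acts against it, was -0.08 and -0.70 on the log2 scale in experiments A and B, neither past the test. The 2 forms of the outer-membrane enzyme were 0.16 (Cpt1a) and 0.01 (Cpt1b) in experiment A. Cpt1b, which the rule for giving all values does not take in and which was chosen after its values were seen, had 183, 77, 70, 232 and 45 normalized counts in controls and 100, 13, 18 and 10 in Cre+ hearts. Its fold change was -2.21 ± 0.66 on the log2 scale (SE, n = 5 and 4; limma adjusted p = 0.103), and Cre+ replicate 1 lay among the controls. Cpt1a was -0.41 in experiment B.

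Beta-oxidation is the step with the most genes. All 12 had fold changes below 0 in both experiments (49.1% of all genes in A, 58.5% in B), with medians of -0.32 (A) and -1.12 (B). The spiral is opened by the acyl-CoA dehydrogenases Acadvl, Acadl, Acadm and Acads for very long, long, medium and short chains. Echs1 hydrates the product, Hadh oxidizes it, Hadha and Hadhb form the trifunctional protein for long chains, and Acaa2 cleaves off acetyl-CoA, while Decr1, Eci1 and Eci2 prepare unsaturated chains. In experiment A 10 of the 12 had every CAP2 -/- heart below every wild-type heart (8% of all genes), all but Echs1 and Eci2. In experiment B 5 of 12 had every Cre+ heart below every control (4.79% of all genes).

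Acaa2 (chr18:74779197-74806208) had 1229.6, 1201 and 1335 CPM in wild-type hearts and 888, 831 and 914 in CAP2 -/- hearts and fell by 0.52 ± 0.11 on the log2 scale (SE, n = 3 and 3; edgeR adjusted p = 0.0193). The groups were well apart. Leaving out wild-type replicate 3 (edgeR adjusted p = 0.117), or from the CAP2 -/- hearts replicate 2 (0.131) or 3 (0.0805), ended the call. In experiment B it had 4823, 4782, 2717, 5505 and 5464 normalized counts in controls and 2226, 1380, 1443 and 2901 in Cre+ hearts, -1.16 ± 0.27 (SE, n = 5 and 4; limma adjusted p = 0.0576). Cre+ replicate 4, at 2901, was above control replicate 3, so the groups overlapped by that pair. It passed the test without control replicate 4. By exon, 9 of 9 exons of Acaa2 with at least 50 reads on average in wild type were lower on average in CAP2 -/- hearts, at 45.6% to 89.8% of wild type, and for Cpt2 5 of 5 were, at 57.0% to 81.9%.

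Decr1 (chr4:15917240-15945507), the 2,4-dienoyl-CoA reductase, had 459, 428 and 488 CPM in wild-type and 323, 385 and 354 in CAP2 -/- hearts, -0.37 ± 0.11 on the log2 scale (SE, n = 3 and 3; edgeR adjusted p = 0.144). The values in experiment B were 2055, 2254, 1536, 3356 and 2442 normalized counts in controls and 1077, 896, 677 and 1272 in Cre+ hearts and fell by 1.15 ± 0.24 (SE, n = 5 and 4; limma adjusted p = 0.0393). The groups did not overlap in either experiment. The limma call was lost without control 1 (adjusted p = 0.117), control 2 (0.12), control 3 (0.0548), Cre+ 2 (0.12), Cre+ 3 (0.129) or Cre+ 4 (0.16). No other gene of the spiral passed the test in experiment B with all libraries. Without control replicate 4, Acadm, Hadha, Hadhb, Hadh and Acaa2 passed it besides Decr1. The dehydrogenases were at -0.18 (Acadvl), -0.13 (Acadl), -0.18 (Acadm) and -0.30 (Acads) on the log2 scale in experiment A and at -0.71, -0.37, -1.49 and -0.90 in experiment B. Hadha, Hadhb and Hadh were at -0.34, -0.38 and -0.38 in experiment A and at -1.13, -1.42 and -1.15 in experiment B. Echs1, Eci1 and Eci2 were at -0.00, -0.33 and -0.14 in experiment A and at -0.86, -1.10 and -0.71 in experiment B.

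Electrons from the acyl-CoA dehydrogenases pass through the flavoprotein of Etfa and Etfb to its oxidoreductase Etfdh and on to the respiratory chain. None of the 3 passed the test in either experiment, and all 3 had fold changes below 0 in both. Etfb had 760.3, 692 and 759 CPM in wild-type and 605, 647 and 658 in CAP2 -/- hearts, -0.21 ± 0.11 on the log2 scale (SE, n = 3 and 3; edgeR adjusted p = 0.52). At 13 weeks it had 3861, 7247, 5265, 1067 and 3185 normalized counts in controls and 3315, 1892, 1481 and 3049 in Cre+ hearts, -0.70 ± 0.47 (SE, n = 5 and 4; limma adjusted p = 0.392). Control replicate 4 was the lowest of the 9 libraries, and the groups overlapped. Without it the value was -1.01, and over the other alternatives it ran from -1.33 (without Cre+ 4) to -0.06, the latter when the mitochondrial share was a covariate. For its partner Etfdh the same library was the highest. Etfdh had 1205, 640, 852, 4825 and 1636 in controls and 463, 446, 422 and 515 in Cre+ hearts, -1.42 ± 0.38 (SE, n = 5 and 4; limma adjusted p = 0.0762), and passed the test without that library. Etfdh had 671, 641 and 736 CPM in wild-type and 560.1, 629 and 574 in CAP2 -/- hearts, -0.22 on the log2 scale. Etfa was at -0.13 in experiment A and -1.18 in experiment B, where it too passed without control replicate 4.

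The 2 ketone enzymes had fold changes above 0 in experiment A, and neither passed the test in either experiment. Bdh1 oxidizes beta-hydroxybutyrate and Oxct1 activates the acetoacetate it yields. Bdh1 had 394, 379 and 431 CPM in wild-type and 547, 472 and 512 in CAP2 -/- hearts, 0.35 ± 0.11 on the log2 scale (SE, n = 3 and 3; edgeR adjusted p = 0.185). Every CAP2 -/- heart was above every wild-type heart. In experiment B Bdh1 had 413, 578, 218, 602 and 608 normalized counts in controls and 588, 1082, 481 and 333 in Cre+ hearts, 0.32 ± 0.40 (SE, n = 5 and 4; limma adjusted p = 0.655), and the groups overlapped. Its sign turned without control replicate 3, to -0.01. Oxct1 had 1228, 1315 and 1477 CPM in wild-type and 1366, 1568 and 1446 in CAP2 -/- hearts, 0.12 ± 0.11 (SE, n = 3 and 3; edgeR adjusted p = 0.783). In experiment B it had 3991, 3619, 2816, 9585 and 3976 in controls and 2332, 3228, 2072 and 2661 in Cre+ hearts, -0.69 ± 0.32 (SE, n = 5 and 4; limma adjusted p = 0.225). Control replicate 4 stood far above the rest, and Cre+ replicate 2 lay above control replicate 3.

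Pdk4 blocks glucose oxidation by inhibiting pyruvate dehydrogenase, and Ucp2 and Ucp3 are uncoupling proteins of the inner mitochondrial membrane, Ucp3 mainly in muscle. Ucp3 (chr7:100472990-100486432) fell in experiment B and not in experiment A; that difference was not tested. It had 516, 384, 246, 408 and 228 normalized counts in controls and 170, 181, 107 and 33 in Cre+ hearts and fell by 1.87 ± 0.39 on the log2 scale (SE, n = 5 and 4; limma adjusted p = 0.0393). All Cre+ hearts were below all controls, with Cre+ replicate 4 lowest. The call was lost without control 1 (limma adjusted p = 0.119), control 2 (0.0922), Cre+ 2 (0.077), Cre+ 3 (0.126) or Cre+ 4 (0.172). In experiment A it had 139, 186 and 135 CPM in wild-type and 151, 141 and 164.6 in CAP2 -/- hearts, -0.01 ± 0.13 (SE, n = 3 and 3; edgeR adjusted p = 0.992). Pdk4 had 807, 1444 and 1152 CPM in wild-type and 1165, 1391 and 1549.8 in CAP2 -/- hearts, 0.27 ± 0.20 (SE, n = 3 and 3; edgeR adjusted p = 0.727). In experiment B it ranged from 574 to 3368 in controls and from 568 to 3766 in Cre+ hearts, 0.15 ± 0.60 (SE, n = 5 and 4; limma adjusted p = 0.9), so the groups overlapped fully. Its sign turned without control 2 (-0.23), control 3 (-0.06), Cre+ 2 (-0.29) or Cre+ 3 (-0.00058). Ucp2, named after its values were seen as the highest fold change of experiment B, had 486, 427, 683, 204 and 904 normalized counts in controls and 496, 1084, 1970 and 1274 in Cre+ hearts, 1.15 ± 0.47 (SE, n = 5 and 4; limma adjusted p = 0.19). It was at -0.16 in experiment A.

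The regulators are the nuclear receptors Ppara, Ppard, Esrra (ERR alpha) and Esrrg (ERR gamma) and the coactivators Ppargc1a and Ppargc1b. None of the 6 passed the test in either experiment; 2 of 6 had fold changes below 0 in experiment A and 6 of 6 in experiment B. Esrrg had 54.4, 55.6 and 53.8 CPM in wild-type and 45.8, 42.4 and 40.7 in CAP2 -/- hearts, -0.35 ± 0.12 on the log2 scale (SE, n = 3 and 3; edgeR adjusted p = 0.236). At 13 weeks it had 55, 78, 85, 382 and 56 normalized counts in controls and 26, 31, 24 and 21 in Cre+ hearts, -1.80 ± 0.50 (SE, n = 5 and 4; limma adjusted p = 0.0856). The groups did not overlap in either experiment, and it passed the test in experiment B without control replicate 4. Ppargc1b went the other way in experiment A, with 18.6, 10.8 and 14.3 CPM in wild-type and 18.9, 26.2 and 24 in CAP2 -/- hearts, 0.65 ± 0.20 (SE, n = 3 and 3; edgeR adjusted p = 0.149). The groups did not overlap, but the highest wild-type and the lowest CAP2 -/- heart were nearly level. The values in experiment B were 29, 35, 30, 62 and 21 in controls and 45, 21, 16 and 17 in Cre+ hearts, -0.54 ± 0.41 (SE, n = 5 and 4; limma adjusted p = 0.455), with overlap. Ppara, Ppard, Ppargc1a and Esrra were at 0.09, 0.05, 0.10 and -0.43 in experiment A and at -1.46, -0.23, -0.99 and -0.57 in experiment B.

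**Figure D4:**
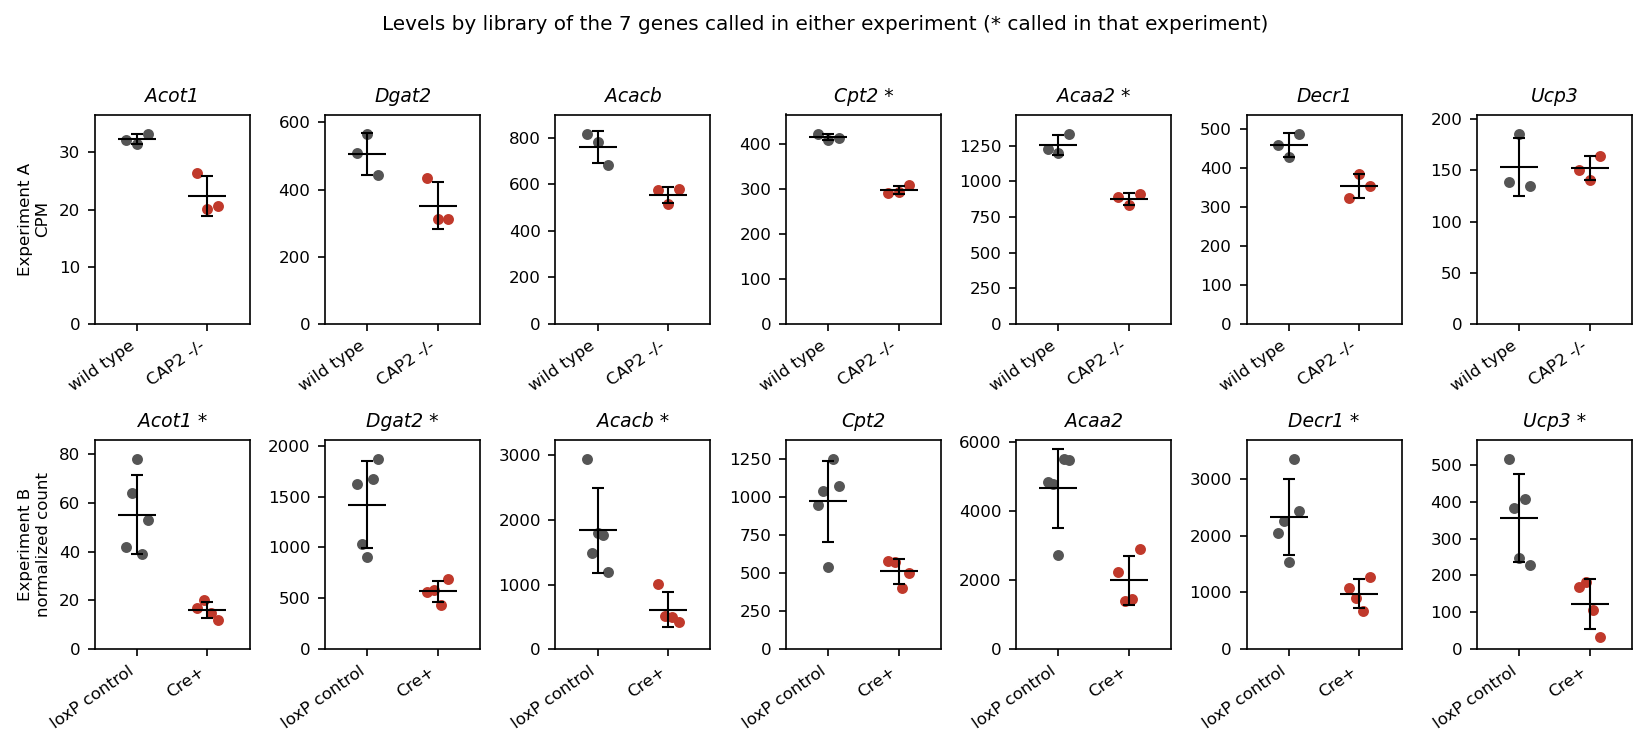
Level by library (points), mean and SD (bars) of the 7 genes that passed the test in either experiment, in CPM for experiment A (upper row) and in normalized counts for experiment B (lower row), each on its own axis from 0. An asterisk marks the experiment in which the gene was called; every mutant lies below every control except for Ucp3 in experiment A and Cpt2 and Acaa2 in experiment B.

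The 2 experiments differ in age, sex, allele, library kit and scale, so their fold changes are set side by side and no test of the difference was made. They share no control samples. Of the 41 genes, 30 were below 0 on the log2 scale in both experiments (33.3% of the 11806 genes tested in both), 7 in experiment B only, 1 in experiment A only (Ucp2) and 3 in neither (Bdh1, Pdk4 and Pnpla2). None was called in both. The share of all genes called in both is not given, so this count does not show that the experiments differ. The mutants were below all controls in both experiments for 12 genes (1.44% of the genes tested in both). The log2 fold change was lower in experiment B than in experiment A for 39 of 41, where it was for 58.2% of all.

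**Figure D5:**
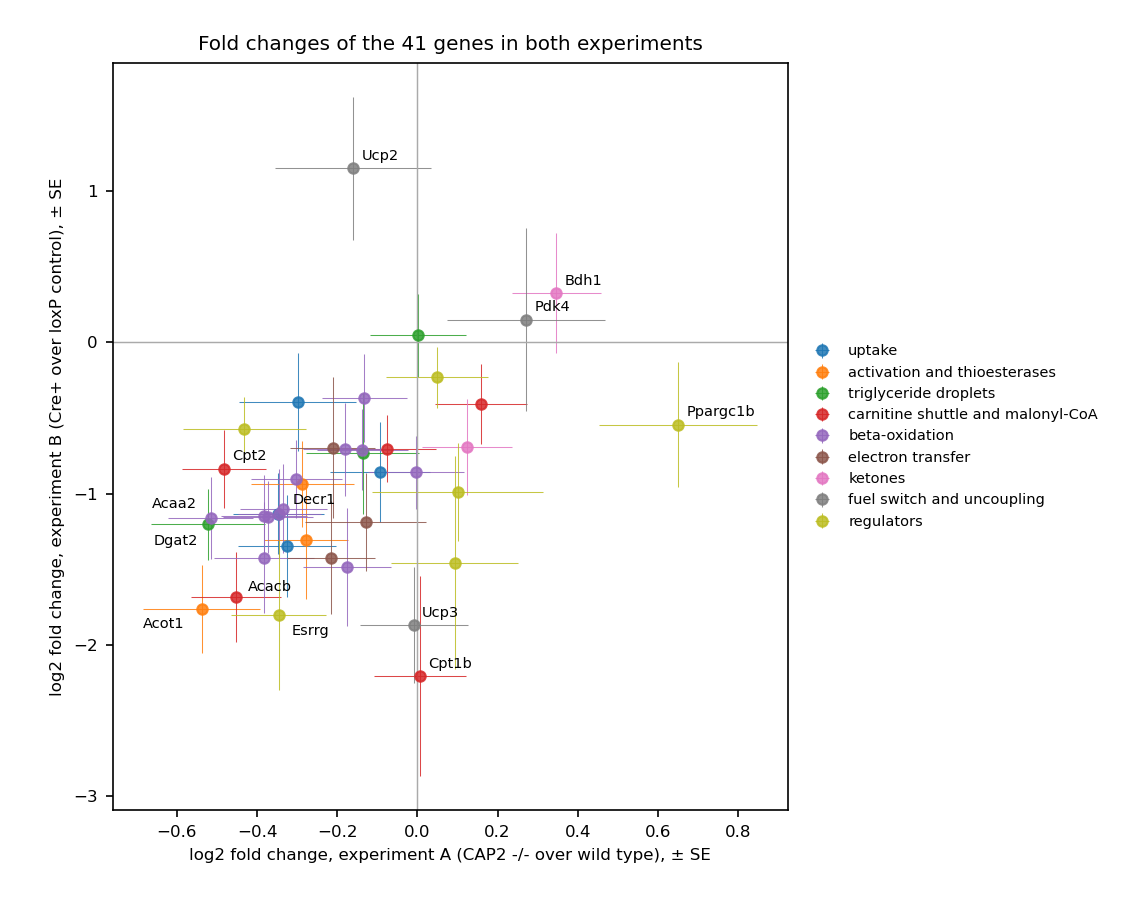
Log2 fold change with its SE of each of the 41 genes in experiment A (horizontal axis) and experiment B (vertical axis), coloured by step. Of the points, 30 lie below 0 on both axes; the widest errors in experiment B belong to Ppara, Cpt1b and Pdk4.

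Levels of different genes were compared per kilobase of exonic length, counting every annotated exon of a gene. That length can exceed the length of the main transcript, so the order of genes depends on it. Lpl, for example, had 7265 CPM over 10478 bases in wild-type hearts, and Fabp3 818 CPM over 823 bases. In wild-type hearts Fabp3 had the highest level at 994 CPM per kilobase, followed by Acaa2 at 828 and Lpl at 693, and Ppargc1b the lowest at 3.65. Cpt1b, the muscle form, had 150 CPM per kilobase and Cpt1a 9.76. In controls of experiment B the highest was again Fabp3 at 8836 normalized counts per kilobase, then Etfb at 3544 and Acaa2 at 3073, while Cpt1b at 36.0 and Cpt1a at 30.0 were close. Exons of 13 of the 41 overlap those of another gene, 3 of them on the same strand (Cpt1b, Etfb and Esrra). Some of their reads may belong to the neighbour, or some of their own may be missing, so these levels are uncertain. The part of this in the level of Cpt1b in experiment B was not tested.

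Of 78 further genes of the pathway, 75 were tested in experiment A, where 3 fell (0.509% of all genes) and 1 rose (0.841% of all), with a median of -0.06. Vldlr, a lipoprotein receptor, fell by 0.51 (edgeR adjusted p = 0.0223), Lpin1, a phosphatase of triglyceride synthesis and a coactivator, by 0.58 (adjusted p = 0.0168), and Pex11a, a factor of peroxisome division, by 0.71 (adjusted p = 0.0109). Prkag2, a regulatory subunit of AMP-activated kinase, rose by 0.93 (adjusted p = 0.000462), from 32.3 ± 0.979 to 61.8 ± 5.29 CPM (SD, n = 3 and 3). In experiment B 76 were tested, 6 fell (0.931% of all genes) and 0 rose (0.947% of all), with a median of -0.45. Vldlr fell by 1.87 (limma adjusted p = 0.0377), the dienoyl-CoA isomerase Ech1 by 1.46 (adjusted p = 0.0278), the carnitine importer Slc22a5 by 1.64 (adjusted p = 0.0465), carnitine acetyltransferase Crat by 0.98 (adjusted p = 0.0452), the droplet coat Plin3 by 1.15 (adjusted p = 0.0424) and the receptor Rxrg by 1.32 (adjusted p = 0.0477). The nearest genes not called in experiment A were Slc16a7 (0.93, a monocarboxylate carrier), Ech1 (-0.43) and Acsl6 (0.50), and in experiment B Prkag2 (1.30, past the test without Cre+ replicate 1 at limma adjusted p = 0.023), Pex11a (-1.25) and Lpin1 (-0.99). Slc25a20, the carnitine-acylcarnitine carrier, was at -0.35 and -0.88, and Slc22a5 at 0.01 in experiment A. Of these calls, that of Prkag2 in experiment A held with each library left out. In experiment A 0 fell when wild-type replicate 3 was left out, 1 without replicate 2 or 3 of the CAP2 -/- hearts and 5 without their replicate 1. In experiment B the number that fell was 0 without control 1, Cre+ 2, Cre+ 3 or Cre+ 4. It was 1 without control 2 or 3, and 8 without control 4 or 5. Of the fits with a library left out, the share of all genes is given only for that without control 4 (1.85%).

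The neighbouring mitochondrial pathways were read in the same fits. Of 25 genes of the citrate cycle and pyruvate dehydrogenase, 0 were called in experiment A (1.35% of all genes), with a median log2 fold change of -0.02. In experiment B 1 fell (0.931% of all genes), with a median of -0.58 and all 25 below 0 (58.5% of all genes). Of 41 nuclear genes of oxidative phosphorylation, 0 were called in either experiment (1.35% of all genes in A, 1.88% in B). Their medians were -0.02 in A and -0.17 in B. The median of the fatty acid and ketone genes was -0.18 in A and -0.94 in B, beside 0.01 and -0.12 over all genes.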

How the data were processed

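RNA of mouse hearts was sequenced as Ion Total RNA-Seq libraries (experiment A) and Illumina TruSeq stranded mRNA libraries (experiment B), per the labels' protocols. The submitters' processing notes name STAR 2.6.0c, DESeq and mm10 without roles; counter and annotation were not given in the sources used here. Estimated counts per gene, rounded here, were deposited for experiment A, with a comparison table of a mean normalized signal, log2 fold changes, a score and p-values, per the file headers. Experiment B was deposited by the authors as whole normalized counts, treated as a score because the normalization is not stated, so no count test was used. Of 16 samples 15 had values; Cre+ replicate 5 was not analysed here.

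Experiment A was fitted with edgeR 4.0.16 (TMM, filterByExpr, robust quasi-likelihood, R 4.3.3); CPM uses TMM-adjusted totals of the tested genes. Experiment B was fitted with limma 3.58.1 (trend, robust) on log2(value + 1) for genes with a mean of at least 10, with sex as a term. P-values were Benjamini-Hochberg adjusted over all genes, and a gene was called at adjusted p under 0.05. DESeq2 1.42.0 was an alternative; scripts were tested on simulated data. Each library has its own number in the labels, and both groups of experiment B hold both sexes. The labels do not say that all libraries of a group came from separate animals, so p-values measure the spread between these samples only. Fold changes on the log2(value + 1) scale understate low genes. The members and lists were chosen with earlier results of these data known. All values were given for genes called and for the gene of each step with the smallest p in each experiment; of the further genes, those called, the 3 others with the smallest p and others set by name were given, of which 1 is not reported here. Gene coordinates are from GENCODE M21 (mm10).

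Alternatives were other scalings, filters and pseudocounts, each library left out, covariates for mitochondrial share and atrial markers, and a replicate block.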

Additional observations from a re-analysis of the deposited data

Results flagged for a closer look

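Within the groups of experiment B, 16 of the 82 gene-by-group sets tested held a library far from the rest. Far was judged by the gap to the nearest library over the range. Chance flags about 1 in 20 of independent sets. These sets are not independent, as the genes were read in the same libraries, so that rate is a loose guide. Control replicate 4 was the far and highest library in 10 of the 16 sets. In normalized counts it had 11681 of Cd36 (other controls 3907 to 5824), 6420 of Acsl1 (1138 to 1931), 9325 of Acadm (1364 to 2286), 8996 of Hadha (2699 to 4331), 7824 of Hadhb (1087 to 1974) and 3946 of Hadh (1257 to 1818). It also had 4825 of Etfdh (640 to 1636), 9585 of Oxct1 (2816 to 3991), 179 of Ppara (11 to 38) and 382 of Esrrg (55 to 85).

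The other controls flagged were replicate 1, with 1355 of Slc27a1 (435 to 692 in the others), and replicate 3, lowest with 2717 of Acaa2 (4782 to 5505). Among the Cre+ hearts, replicate 1 was highest with 100 of Cpt1b (10 to 18) and 1015 of Acacb (420 to 515), replicate 2 with 512 of Plin5 (216 to 264), and replicate 4 with 1059 of Hadh (647 to 701).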

How the results depend on the processing

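Neither member that fell in experiment A kept its call through every left-out library, and depth was unknown in experiment B. Across named genes, 582 of 763 alternative values kept direction and call, 123 lost the call, 43 gained it and 15 changed sign; the causes were not tested. In experiment A the members that fell, 2 in the main analysis, numbered 6 with DESeq2, 4 with library totals only, 6 with no filter on low counts and 0 to 5 with a library left out; 1 rose (Ppargc1b) with no filter. Further pathway genes that fell, 3, numbered 5 with DESeq2 and with no filter and 0 to 5 with a library left out; those that rose, 1, numbered 2 with DESeq2, no filter or at least 1 CPM in 3 samples and 1 to 2 with a library left out. In experiment B the members that fell, 5, numbered 11 with no filter, 2 with TMM factors, 8 with quantile normalization, 8 scaled to nuclear genes, 0 with the mitochondrial share or atrial markers as covariate, and 0 to 16 with a library left out. Further genes that fell, 6, numbered 0 with TMM factors or either covariate, 3 in females only and 0 to 8 with a library left out; those that rose, 0, numbered 1 with no filter or TMM factors, 2 with quantile normalization and 0 to 1 with a library left out. The median of the members was -0.61 with atrial markers as covariate, against -0.94. Counts from a fit for which no figure over all genes is given cannot be set against all genes. All genes called split 115 higher to 113 lower in experiment B, 151 to 67 with TMM factors, 211 to 124 with quantile normalization and 108 to 137 scaled to nuclear genes; in experiment A 137 to 83, and 131 to 128 with library totals only.

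Signs turned as follows. Slc22a5 in experiment A was -0.038 with library totals only, -0.014 with no filter, and -0.086 to 0.10 with a library left out, below 0 without CAP2 -/- replicate 1 or wild-type replicate 3. Ucp3 in experiment A was -0.094 to 0.15 with a library left out, above 0 without wild-type replicate 2 or CAP2 -/- replicate 2. In experiment B Bdh1 was -0.092 with the mitochondrial share and -0.0092 to 0.85 with a library left out, below 0 without control 3. Ppargc1b was 0.10 with atrial markers. Pdk4 was -0.71 with the mitochondrial share and -0.29 to 0.58 with a library left out, below 0 without control 2, control 3, Cre+ 2 or Cre+ 3.

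With a replicate block, 0 members and 2 further genes fell in experiment A, 9 members and 3 further genes fell and 2 further genes rose in experiment B, and Ucp3 in experiment A was 0.0030. Same-numbered libraries did not pair: their deviations correlated at -0.17, -0.12 and -0.02 in A and 0.24, -0.11, 0.18 and 0.03 in B.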
